A study of Mus musculus with 71 samples.

Results

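The clustered protocadherins were read as the 58 gene symbols that match the alpha (Pcdha and Pcdhac), beta (Pcdhb) and gamma (Pcdhga, Pcdhgb and Pcdhgc) names, of 24222 genes in the count tables. The alpha cluster had 14 members, the beta cluster 22 and the gamma cluster 22. In mouse embryonic stem (ES) cells grown in 2i only the gamma cluster was measured at a level that could be tested: 16 gamma members passed the filter on low counts, and 0 alpha and 0 beta members did. Of the members left out, 12 had 0 counts in every library, 9 of them alpha and 3 beta.

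RNA was sequenced from C57BL/6 ES cells on gelatin in 2i, a medium that keeps ES cells in the naive state, in 3 groups of 3 libraries. The rescue group was labelled EZH2 rescue, the dKO group was a double knockout of Ezh1 and Ezh2, and the third group was wild type (WT). Ezh1 and Ezh2 encode alternative catalytic subunits of the Polycomb complex PRC2, a methyltransferase for lysine K27 of histone H3, and Suz12 is a further core subunit. Ezh1 averaged 2.88 ± 0.540 CPM (counts scaled to the library total) in rescue, 1.99 ± 0.301 in dKO and 49.9 ± 3.02 in WT (SD, n = 3 libraries each), so rescue and dKO cells shared a low Ezh1 level. Ezh2 averaged 560 ± 14.1 CPM in rescue, 199 ± 13.4 in dKO and 310 ± 2.98 in WT, and gene-level counts do not show which exons were deleted. Whether a line was a single clone, and how the rescue construct was driven, is not given in the sources used here. A list of 7480 Suz12 peaks came from Suz12 WT ES cells of another strain, 129B6F1.

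Libraries held 12457622 to 36009529 counts. A count of 0 allows up to 3 counts, which is between 0.0833 and 0.241 CPM depending on the library. dKO replicate 3 stood apart from the other dKO libraries, with a chi-square per degree of freedom of up to 22.6, against 2.15 to 11.5 within rescue and WT, and the main changes without it are given beside the results. All 8 ES cell markers were detected in each group and summed to 7796 to 7850 CPM in rescue, 5721 to 5865 in dKO and 6828 to 7065 in WT. Of the 8, 1 rose and 6 fell in dKO against WT (edgeR adjusted p under 0.05), against 33.7% and 31.0% of all genes. In rescue against dKO 6 rose and 0 fell (32.1% and 38.2% of all genes). In rescue against WT 5 rose and 1 fell (26.8% and 27.3% of all genes). The labels do not tell whether replicates were grown separately, and the spread behind each p-value may be technical. The 3 groups are bulk cultures, in which fewer cells of a type and less RNA per cell cannot be told apart.

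Clustered protocadherins are cadherin-like adhesion proteins encoded in 3 tandem arrays on the same chromosome. Each alpha and gamma variable exon has its own promoter and is spliced to constant exons shared by its cluster, whereas each beta gene is a single coding exon. In neurons, choice among these promoters gives each cell its own combination of isoforms, which neurites use to tell self from non-self. CTCF and cohesin loop the promoters to enhancers, and DNA methylation and the chromatin protein SMCHD1 silence them. The C-type isoforms (Pcdhac1, Pcdhac2, Pcdhgc3, Pcdhgc4 and Pcdhgc5) are chosen less randomly and are found more widely in the nervous system.

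All 58 members lie on chromosome 18, and the GRCm38.p6 gene table placed the alpha cluster at 36930285 to 37188897, the beta cluster at 37264998 to 37521419 and the gamma cluster at 37661775 to 37841873. The low-coordinate end of each entry was taken as the start of its variable exon, since the alpha entries, and likewise the gamma entries, end close together at their shared exons. Suz12 peaks lay in all 3 clusters, most densely in gamma. The gamma cluster held 15 peaks that covered 13.5% of its 180.1 kb, the beta cluster 6 peaks that covered 2.53% of 256.4 kb, and the alpha cluster 4 peaks that covered 1.65% of 258.6 kb. Over chromosome 18 as a whole 228 peaks covered 0.378%. Counting only peaks wider than the median of 1032 bp left 10 in gamma, 3 in beta and 2 in alpha.

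A Suz12 peak lay within 1 kb of the start of 11 of 22 gamma members, 2 of 22 beta members and 4 of 14 alpha members, against 20.6% of 15493 protein-coding genes on other chromosomes. The alpha members were Pcdha2, Pcdha3 and both alpha C-type genes, Pcdhac1 and Pcdhac2. The beta members were Pcdhb19 and Pcdhb22. The gamma members were Pcdhgb2, Pcdhga5, Pcdhga7, Pcdhgb4, Pcdhga8, Pcdhgb5, Pcdhga9, Pcdhgb6, Pcdhga10, Pcdhgb7 and Pcdhga11, which form the middle of the array. The first 5 gamma genes, the last 5 and Pcdhga6 had none there. The nearest peak was 5.6 kb from the start of Pcdhga1, 1.6 kb from Pcdhga12 and 42.4 kb from Pcdhgc3. The 3 gamma C-type genes were the farthest of the gamma members from any peak. Taking the first 3 kb of each gene in place of the 1 kb window, 13 gamma, 5 beta and 4 alpha members had a peak. These were 59.1%, 22.7% and 28.6% of their clusters, against 20.6% of the protein-coding genes on other chromosomes.

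**Figure D1:**
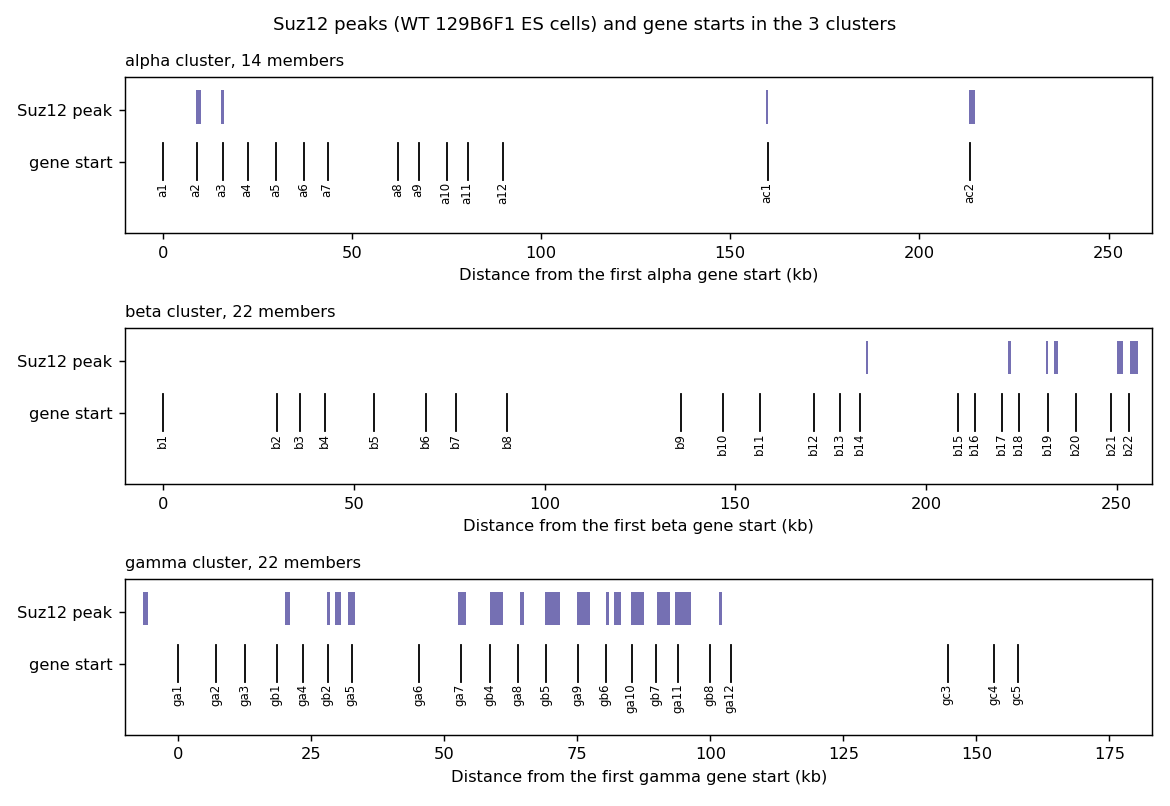
Map of Suz12 peaks from WT 129B6F1 ES cells (bars, drawn to scale) and gene starts (ticks, labelled without the Pcdh prefix) along each cluster. The horizontal axes give the distance in kb from the first gene start of the cluster, and the leftmost gamma bar lies 5.6 kb outside the cluster. Peaks line the middle of the gamma array, the downstream end of the beta array and 4 places in the alpha array, and the 3 gamma C-type genes at the right stand 42.4 to 55.5 kb from any peak.

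The alpha genes were close to silent in every group. Their 14 members together had 9 counts in rescue, 19 in dKO and 2 in WT, over 3 libraries each. Summed over the cluster this was 0.0857, 0.140 and 0.130 CPM in rescue, 0.301, 0.384 and 0.239 CPM in dKO, and 0.0688, 0 and 0.0515 CPM in WT. The dKO sums did not overlap those of either other group, but each rested on between 4 and 9 counts. No alpha member passed the filter, so no test was made, and the highest mean of any of them over the 9 libraries was 0.0611 CPM.

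Only 5 alpha genes had any read. Pcdhac2, a C-type isoform needed in mice for the even spacing of serotonergic axons, had 1, 1 and 0 counts in rescue, 1, 4 and 4 in dKO and 1, 0 and 0 in WT. Pcdha12 had 0, 2 and 0 counts in rescue, 2, 1 and 1 in dKO and 0, 0 and 1 in WT. Pcdha1 had 1, 0 and 3 counts in rescue, 0, 3 and 1 in dKO and none in WT. These counts are too few to rank the genes or the groups. Pcdha3 had 1, 1 and 0 counts in dKO and none elsewhere, and Pcdhac1 had 1 count, in rescue replicate 1. The 3 entries for read-through alpha transcripts, which are not among the members, had 1, 1 and 0 counts over all libraries.

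The beta genes, single-exon adhesion proteins, were also below the filter, but their reads were spread over many more genes outside WT. The 22 members had 74 counts in rescue, 61 in dKO and 14 in WT. At least 1 read was found for 17 members in rescue, 15 in dKO and 4 in WT, where total counts were 82000360, 58049925 and 57181026. The summed level was 1.20, 0.840 and 0.605 CPM in rescue, 0.979, 0.938 and 1.04 CPM in dKO, and 0.413, 0.186 and 0.206 CPM in WT. The WT sums lay below every rescue and dKO sum, and the rescue and dKO sums overlapped. No beta member was tested in the fit as reported, and the highest mean was 0.290 CPM.

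Pcdhb22, the last beta gene and the member with a Suz12 peak 0.2 kb from its start, carried most beta reads in WT. Pcdhb22 had 15, 5 and 6 counts in rescue, 6, 5 and 9 in dKO and 6, 2 and 3 in WT, and its CPM values overlapped between all groups. Pcdhb14 had 8, 3 and 0 counts in rescue, 2, 3 and 4 in dKO and 0 in every WT library. With 3 counts over the WT group as the limit, the observed Pcdhb14 level was 2.55 times the limit in rescue (11 counts against 0) and 2.69 times in dKO (9 counts against 0). Such ratios leave out the counting error of the rescue and dKO counts, so they are not lower bounds. Without rescue replicate 1, 3 of the 11 rescue counts were left, no more than the limit, while the dKO ratio stayed between 2.51 and 2.89 without any 1 dKO library. Pcdhb17 had 2, 2 and 0 counts in rescue, 1, 5 and 1 in dKO and 0 in WT. Its observed dKO level was 2.09 times the WT limit, but 5 of the 7 dKO counts came from dKO replicate 2, and the 2 left without it lie under the limit. Pcdhb5 had 3, 0 and 0 counts in rescue, 1, 3 and 2 in dKO and 0 in WT, and its observed dKO level was 1.79 times the WT limit. Without dKO replicate 2 it had 3 counts, no more than the limit. Pcdhb2 had 2, 3 and 1 counts in rescue, 0, 3 and 3 in dKO and 0, 1 and 0 in WT.

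With the filter on low counts dropped, edgeR called Pcdhb14 higher in dKO than WT (Benjamini-Hochberg adjusted p = 0.0273) and in rescue than WT (adjusted p = 0.0344), and Pcdhb17 higher in dKO than WT (adjusted p = 0.0437). DESeq2's Wald test gave Pcdhb14 an adjusted p of 0.0454 in dKO against WT. Pcdhb14 and Pcdhb17 have a Suz12 peak inside the gene, starting 1.6 kb from their starts. Pcdhb21 has one at the same distance, and Pcdhb19 and Pcdhb22 also have one in the first 3 kb, and these genes were not called. The 17 beta members whose counts are not given above had between 0 and 5 counts over all 9 libraries.

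**Figure D2:**
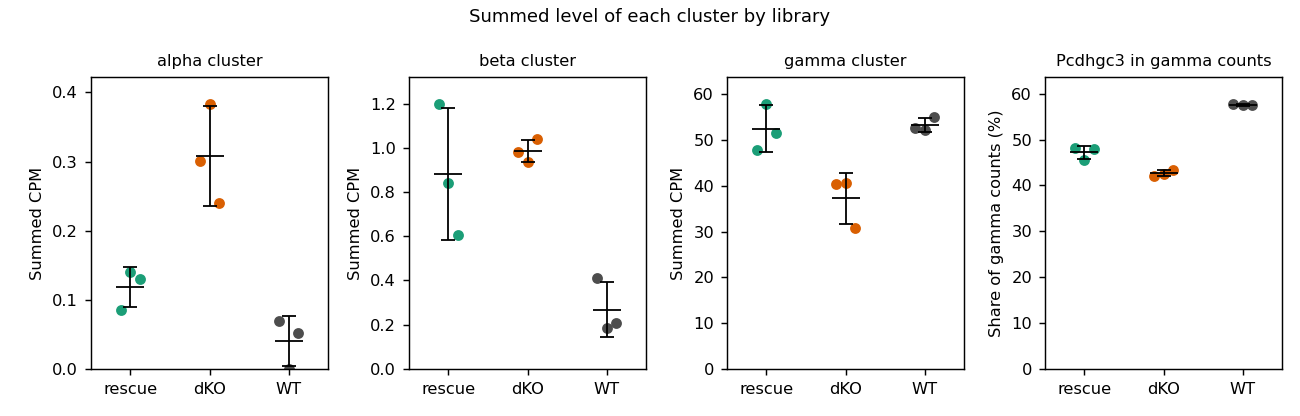
Summed CPM of the alpha, beta and gamma members in each library, and the share of gamma counts that fell on Pcdhgc3, for rescue, dKO and WT. Points are libraries, the horizontal bar is the mean and the whiskers are the SD of 3 libraries. The beta sum was lowest in WT (0.186 to 0.413 CPM), the gamma sum was lowest in dKO (30.9 to 40.6 CPM), and the Pcdhgc3 share was lowest in dKO (42.2% to 43.4%).

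The gamma cluster summed to 47.9, 58.0 and 51.6 CPM in rescue, 40.4, 40.6 and 30.9 CPM in dKO, and 52.7, 52.2 and 55.2 CPM in WT. dKO libraries lay below all others, dKO replicate 3 lowest, and rescue and WT overlapped. All 22 members had reads in each group, 4114 counts in rescue, 2262 in dKO and 2956 in WT. Pcdhgc3 took 48.1%, 45.7% and 47.9% of gamma counts in rescue, 42.2%, 42.5% and 43.4% in dKO, and 57.8%, 57.5% and 57.5% in WT. The 3 groups did not overlap in this share, which is a share of counts and not corrected for exon length. Without Pcdhgc3 the gamma sum was 27.8 ± 3.40 CPM in rescue, 21.4 ± 3.38 in dKO and 22.6 ± 0.719 in WT. The A-type genes summed to 23.5 ± 2.77 CPM in rescue, 16.5 ± 2.12 in dKO and 19.3 ± 0.286 in WT, and the B-type genes to 4.07 ± 0.530 CPM in rescue, 4.30 ± 1.19 in dKO and 2.96 ± 0.479 in WT (SD, n = 3 each).

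Reads were not credited equally to all gamma genes. Pcdhga6 had 0 counts in 5 of 9 libraries, so reads in exons shared by the cluster were not counted for every member. How many reads in shared or near-identical sequence were dropped or assigned to a neighbour is not shown by gene-level counts, and differences between gamma members are uncertain for that reason.

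In dKO against WT gamma genes moved in both directions: of 16 tested members 3 rose and 4 fell, with a median log2 fold change of 0.16, against -0.00 over all genes tested. Over all 14145 tested genes 33.7% were called higher and 31.0% lower, 64.7% in all, so the gamma count was no higher than the background. Libraries of the 2 groups did not overlap for 8 of the 16, against 68.0% of all genes. The filter asked for about 0.45 CPM, before TMM scaling, in 3 libraries. Without the libraries of 1 group 4 of the 16 would not have reached it, Pcdhga5 and Pcdhgb6 without dKO and Pcdhgb5 and Pcdhgb8 without rescue, so counts and medians over the 16 are descriptions.

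Pcdhgc3, a C-type isoform that promotes dendrite branching in mouse cortical neurons, had the most counts of any member. It was at 23.0, 26.5 and 24.8 CPM in rescue, 17.0, 17.3 and 13.4 CPM in dKO, and 30.5, 30.0 and 31.7 CPM in WT. All dKO libraries lay below all rescue libraries, and these below all WT libraries. It fell by 0.96 ± 0.10 in dKO against WT (log2 fold change ± SE, edgeR quasi-likelihood test, Benjamini-Hochberg adjusted p = 6.29e-06). Without dKO replicate 3 it fell by 0.84.

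Pcdhga12, the last A-type gene of the array, was at 5.46, 6.49 and 5.19 CPM in rescue, 3.77, 3.46 and 3.67 CPM in dKO, and 6.26, 7.60 and 6.13 CPM in WT. The dKO libraries lay below the others and rescue overlapped WT. It fell by 0.89 ± 0.15 in dKO against WT (edgeR adjusted p = 0.000189). Pcdhga1, the first gene of the array, was at 4.89, 5.79 and 5.14 CPM in rescue, 1.66, 1.83 and 1.80 CPM in dKO, and 2.96, 2.47 and 2.42 CPM in WT. The 3 groups did not overlap, with rescue highest and dKO lowest. It fell by 0.55 ± 0.17 in dKO against WT (edgeR adjusted p = 0.0134).

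Pcdhga11 was at 3.40, 4.39 and 3.24 CPM in rescue, 3.54, 3.16 and 2.75 CPM in dKO, and 3.79, 4.05 and 4.64 CPM in WT. dKO lay below WT in all libraries, while rescue overlapped both. It fell by 0.42 ± 0.17 in dKO against WT (edgeR adjusted p = 0.0473). Over 17 alternatives its log2 fold change lay between -0.50 and -0.33, and the adjusted p stayed under the threshold in 5 and was at most 0.167, without WT replicate 3.

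The 3 members that rose were low genes of the middle of the array. Pcdhgb2 was at 0.857, 1.07 and 0.994 CPM in rescue, 1.58, 2.22 and 1.28 CPM in dKO, and 0.344, 0.419 and 0.309 CPM in WT. The 3 groups did not overlap, with dKO highest. It rose by 2.22 ± 0.32 in dKO against WT, 4.65-fold (edgeR adjusted p = 6.38e-05), the largest change among tested gamma members in any of the 3 comparisons.

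Pcdhga5 was at 0.200, 0.513 and 0.130 CPM in rescue, 0.452, 0.469 and 0.439 CPM in dKO, and 0, 0.140 and 0.206 CPM in WT. It rose by 1.80 ± 0.66 in dKO against WT (edgeR adjusted p = 0.0293). Pcdhgb6 was at 0.371, 0.467 and 0.475 CPM in rescue, 0.527, 0.938 and 0.559 CPM in dKO, and 0.344, 0.419 and 0.206 CPM in WT, and rose by 1.08 ± 0.38 in dKO against WT (edgeR adjusted p = 0.0260). For both genes the dKO libraries lay above the WT libraries, and rescue overlapped WT. Both passed the filter only with the dKO libraries, the group where they are high, so their calls are not independent of the filter. With no filter edgeR gave adjusted p = 0.0297 for Pcdhga5 and 0.0386 for Pcdhgb6. Both calls were lost without dKO replicate 2 (adjusted p = 0.0645 for Pcdhga5 and 0.148 for Pcdhgb6), without WT replicate 1 (0.0770 and 0.0535) and with DESeq2's Wald test (0.0532 and 0.102). Pcdhga5 was also lost without WT replicate 2 (0.0710) and Pcdhgb6 without WT replicate 3 (0.101).

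Without dKO replicate 2 or WT replicate 1 only Pcdhgb2 was called higher, a count of 1. Without dKO replicate 3 the counts in dKO against WT were 5 higher and 3 lower. Pcdhga2 (adjusted p = 0.0404) and Pcdhga7 (adjusted p = 0.0248) were then called higher, and Pcdhga11 was not called (adjusted p = 0.106). Of the members called lower, Pcdhgc3, Pcdhga12 and Pcdhga1 kept their call in all 17 alternatives, and of those called higher Pcdhgb2 kept it in all 16 that could test it.

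**Figure D3:**
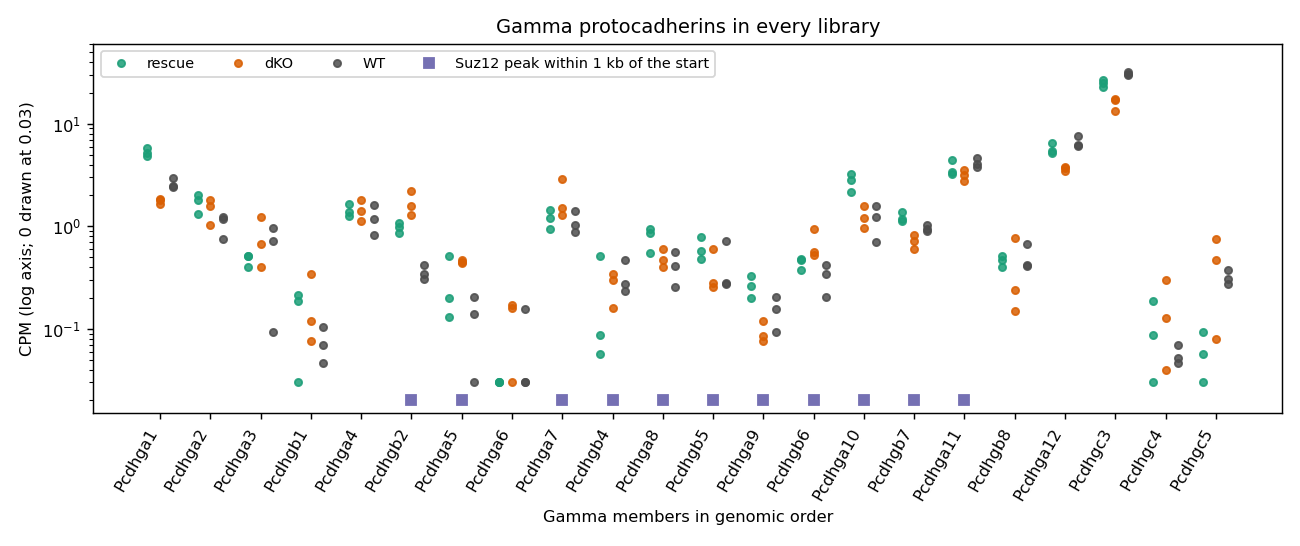
CPM of each of the 22 gamma members in every library, in genomic order, with rescue left, dKO in the middle and WT right of each position. The vertical axis is logarithmic and a value of 0 is drawn at 0.03, and squares mark genes with a Suz12 peak within 1 kb of the start. Pcdhgc3 stands highest at 13.4 to 31.7 CPM, and Pcdhgb2 in WT (0.309 to 0.419 CPM) lies below its rescue and dKO values.

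In rescue against dKO, of 16 tested gamma members 5 rose, 1 fell and 10 were not called. The median was 0.23, against -0.04 over all genes tested, of which 32.1% were called higher and 38.2% lower, 70.3% in all. The count that rose was thus near the background, and the count that fell was below it. Libraries did not overlap for 7 of 16 members, against 71.7% of all genes. Scaling on the other chromosome 18 genes left these counts at 5 and 1, but moved the share of calls that were higher over all genes to 32.9%, against 45.6% as reported, and the median of all genes to -0.20.

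Pcdhga1 had the largest rise, by 1.56 ± 0.15 in rescue against dKO (2.95-fold, edgeR adjusted p = 2.40e-06). Pcdhgc3 rose by 0.64 ± 0.10 (edgeR adjusted p = 0.00013) and Pcdhga12 by 0.65 ± 0.14 (edgeR adjusted p = 0.0014). These 3 genes, with the per-library values given above, were those that fell in dKO under all 17 alternatives. The comparisons share the dKO libraries, so the fall and the rise are not independent.

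Pcdhga10 was at 2.14, 3.22 and 2.85 CPM in rescue, 1.21, 1.58 and 0.958 CPM in dKO, and 1.58, 0.699 and 1.24 CPM in WT. Every rescue library lay above all dKO and WT libraries, and dKO overlapped WT. It rose by 1.11 ± 0.28 in rescue against dKO (edgeR adjusted p = 0.00371), and in dKO against WT it did not pass (0.13 ± 0.33, edgeR adjusted p = 0.739). Pcdhgb7, named after its values were seen, was at 1.37, 1.17 and 1.12 CPM in rescue, 0.829, 0.725 and 0.599 CPM in dKO, and 0.895, 0.932 and 1.03 CPM in WT. The 3 groups did not overlap, and it rose by 0.81 ± 0.23 in rescue against dKO (edgeR adjusted p = 0.00752). It did not pass in dKO against WT (-0.44 ± 0.25, edgeR adjusted p = 0.160) or in rescue against WT (0.37 ± 0.22, edgeR adjusted p = 0.185).

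Pcdhgb2 went the other way and fell by 0.81 ± 0.25 in rescue against dKO (edgeR adjusted p = 0.0113). That call was lost without rescue replicate 1 (adjusted p = 0.0562), without dKO replicate 2 (0.0857), which left 0 called lower by edgeR, and with DESeq2's Wald test (0.0589). Without dKO replicate 3 Pcdhgb2 fell by 1.03, and Pcdhga7 (adjusted p = 0.0289) and Pcdhgc5 were also called lower, which made 5 higher and 3 lower.

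Against WT, 3 of 16 gamma members rose in rescue, 1 fell and 12 were not called. Their median was 0.38, against 0.00 over all genes tested. Over all genes 26.8% were called higher and 27.3% lower, 54.1% in all, and libraries did not overlap for 65.3% of genes, against 6 of 16 gamma members. Scaling on the other chromosome 18 genes kept 3 and 1, while the share of all calls that were higher became 35.7%, against 49.6% as reported, and the median of all genes -0.12.

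Pcdhgb2 rose by 1.40 ± 0.33 in rescue against WT (edgeR adjusted p = 0.00386), Pcdhga10 by 1.25 ± 0.29 (edgeR adjusted p = 0.00344) and Pcdhga1 by 1.01 ± 0.15 (edgeR adjusted p = 0.000137). Each was higher in all 3 rescue libraries than in any WT library. Pcdhgc3 fell by 0.31 ± 0.10 (edgeR adjusted p = 0.0175), and this call was lost without rescue replicate 1 (adjusted p = 0.0823) or WT replicate 3 (0.0637). Without rescue replicate 1 5 members were called higher, with Pcdhga2 (adjusted p = 0.0361) and Pcdhga8 (adjusted p = 0.0316) added, and 0 lower by edgeR. Without dKO replicate 3, which enters this comparison only through the filter, the scaling and the shared spread, 4 were called higher, with Pcdhga2 (adjusted p = 0.0255) added, and 2 lower, with Pcdhgc5 added. Pcdhga2 was at 1.31, 1.82 and 2.03 CPM in rescue and 1.24, 0.746 and 1.19 CPM in WT, which do not overlap. Pcdhga12 did not pass (-0.23 ± 0.14, edgeR adjusted p = 0.166).

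Set side by side, Pcdhga1 and Pcdhga10 had their highest level in rescue, Pcdhgb2 in dKO, and Pcdhgc3 in WT. The remaining tested members, Pcdhga2, Pcdhga3, Pcdhga4, Pcdhga7, Pcdhga8, Pcdhgb5 and the transcribed pseudogene Pcdhgb8, did not pass in any of the 3 comparisons. Their means lay between 0.379 CPM for Pcdhgb5 in dKO and 1.88 CPM for Pcdhga7 in dKO. Pcdhga3 was at 0.400, 0.513 and 0.519 CPM in rescue, 0.678, 1.24 and 0.399 CPM in dKO, and 0.964, 0.0932 and 0.722 CPM in WT, a spread within WT wider than any difference between group means. Leaving out 1 library brought in some calls: Pcdhgb8 lower in dKO against WT without dKO replicate 2 (edgeR adjusted p = 0.0401), and Pcdhga8 higher in rescue against dKO without rescue replicate 1 (0.0417) and in rescue against WT without WT replicate 2 (0.0453).

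**Figure D4:**
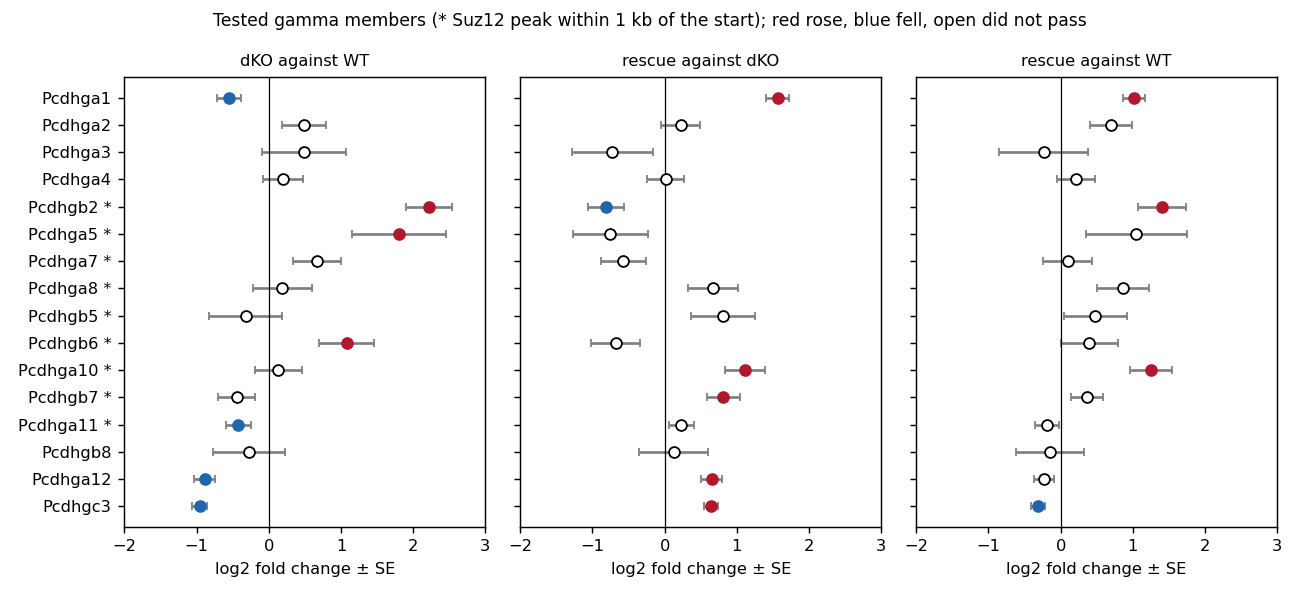
log2 fold change with its SE for the 16 tested gamma members in dKO against WT, rescue against dKO and rescue against WT, in genomic order from top to bottom. Filled red points rose and filled blue points fell at a Benjamini-Hochberg adjusted p under 0.05 in edgeR, open points did not pass, and an asterisk marks a Suz12 peak within 1 kb of the start. In dKO against WT the 3 red points (1.08 to 2.22) all carry an asterisk, and 3 of the 4 blue points (-0.96 to -0.42) do not. Of the red points, Pcdhga5 and Pcdhgb6 passed the filter only with the dKO libraries, where they are high. Over all genes tested 33.7% were called higher and 31.0% lower, and a link between peaks and changes was not tested.

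The 6 gamma members below the filter had means of at most 0.270 CPM over the 9 libraries. Pcdhgc5, a C-type gene, had 2, 2 and 0 counts in rescue, 10, 11 and 2 in dKO and 4, 8 and 6 in WT. In CPM this was 0.0571, 0.0934 and 0 in rescue, 0.753, 0.469 and 0.0798 in dKO, and 0.275, 0.373 and 0.309 in WT. Rescue lay below all WT libraries and overlapped dKO only through dKO replicate 3. With no filter edgeR called it lower in rescue against dKO (log2 fold change -2.78, adjusted p = 0.00738) and in rescue against WT (-2.56, adjusted p = 0.0231). DESeq2's Wald test also called both (adjusted p = 0.00867 and 0.0308). With 1 library left out it was tested only where dKO replicates 1 and 2 both stayed, since only those libraries reached the filter, and calls made there are no further evidence. The fitted fold changes of so few counts depend on the prior count.

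Pcdhgc4, the gamma isoform that mouse interneurons need to survive, had 1, 4 and 2 counts in rescue, 4, 3 and 1 in dKO and 1, 1 and 1 in WT, with CPM values that overlapped between all groups. Over the 9 libraries Pcdhgb1 had 26 counts, Pcdhga6 12, Pcdhgb4 49 and Pcdhga9 34. Of the 5 C-type genes only Pcdhgc3 passed the filter in these ES cells, with 4615 counts over the 9 libraries.

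Gamma members with and without a Suz12 peak at their start were set side by side. Of the 11 with a peak within 1 kb, 9 were tested. In dKO against WT 3 rose and 1 fell, with a median of 0.19 and a range of -0.44 to 2.22. Over all genes tested 33.7% were called higher and 31.0% lower, so the count that rose was near the background. Pcdhga5 and Pcdhgb6, 2 of the 3 that rose, had passed the filter only with the dKO libraries. Of the 11 without, 7 were tested, 3 fell and 4 were not called, with a median of -0.28 and a range of -0.96 to 0.49. The split is small, the difference between the groups of genes was not tested, and the peaks come from cells of another strain. Summed over all 11 genes with a peak, the level was 10.9, 14.3 and 11.9 CPM in rescue, 12.6, 11.7 and 8.82 CPM in dKO, and 9.16, 9.23 and 10.1 CPM in WT, and dKO overlapped WT through dKO replicate 3. Summed over the 10 without a peak other than Pcdhgc3, it was 13.97, 17.2 and 14.9 CPM in rescue, 10.8, 11.6 and 8.66 CPM in dKO, and 13.1, 13.0 and 13.3 CPM in WT, with every dKO library below every other. Most of this sum was Pcdhga12 and Pcdhga1, with means of 6.7 and 2.62 CPM in WT and 3.63 and 1.76 CPM in dKO. Of the 4 tested members not called, Pcdhga2 (1.06 CPM in WT, 1.47 in dKO), Pcdhga3 (0.593, 0.771) and Pcdhga4 (1.20, 1.44) had higher means in dKO. Pcdhgb8 (0.501, 0.386) had a lower one.

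Of the 9 tested members with a peak 2 rose and 1 fell in rescue against dKO, and 3 of the 7 without rose (32.1% and 38.2% of all genes were called higher and lower). In rescue against WT 2 of the 9 with a peak rose, and of the 7 without 1 rose and 1 fell (26.8% and 27.3% of all genes). Taking the first 3 kb of each gene in place of the 1 kb window raised the members with a peak to 13, of which 10 were tested. In dKO against WT 3 of these rose and 1 fell, against 33.7% and 31.0% of all genes.

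Genes around the clusters were read beside them. Of 19 listed neighbours on chromosome 18, 18 were matched and 15 tested, and in dKO against WT 5 rose and 6 fell, against 33.7% and 31.0% of all genes tested. Arap3, a GTPase-activating protein gene downstream of gamma, averaged 0.191 ± 0.0227 CPM in rescue, 1.81 ± 0.367 CPM in dKO and 0.177 ± 0.0353 CPM in WT, and rose by 3.26 in dKO (edgeR adjusted p = 3.18e-06). It had 6, 4 and 5 counts in rescue, 29, 34 and 45 in dKO and 2, 4 and 4 in WT. Arap3 and Cd14, another neighbour that rose, passed the filter only with the dKO libraries, the group where they are high. Their calls are thus not independent of the filter. Upstream of alpha, Tmco6 fell by 0.72 (edgeR adjusted p = 1.31e-05) and Hars, a histidyl-tRNA synthetase, fell by 0.42 (edgeR adjusted p = 0.000145), and Zmat2 did not pass (-0.06, edgeR adjusted p = 0.541). Of the 15, 9 rose and 3 fell in rescue against dKO (32.1% and 38.2% of all genes), and 4 rose and 2 fell in rescue against WT (26.8% and 27.3% of all genes). The median of 332 other tested chromosome 18 genes was -0.01 in dKO against WT, 0.09 in rescue against dKO and 0.07 in rescue against WT.

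Of 28 listed gene symbols, alternative symbols included, for factors taken to act on the clusters, 25 were matched and tested. In dKO against WT 4 rose and 18 fell, against 33.7% and 31.0% of all genes, and their median log2 fold change was -0.30. Dnmt3l, the cofactor of the de novo DNA methyltransferases, was at 212 ± 16.8 CPM in rescue, 277 ± 9.70 in dKO and 17.2 ± 1.32 in WT, and rose by 4.01 in dKO (edgeR adjusted p = 2.47e-11). The cohesin subunit gene Stag2 fell by 1.18 (edgeR adjusted p = 3.29e-09) and the cohesin release factor gene Wapal by 0.76 (edgeR adjusted p = 5.42e-06), while the cohesin subunit gene Rad21 did not pass (-0.08, edgeR adjusted p = 0.38). Ctcf and Smchd1, named beyond the fixed rule, fell by 0.35 (edgeR adjusted p = 0.000334) and 0.44 (edgeR adjusted p = 3.83e-05). Against dKO, 13 of the 25 rose in rescue and 6 fell (32.1% and 38.2% of all genes), and against WT 6 rose and 8 fell (26.8% and 27.3% of all genes). Whether any of these levels bears on the protocadherins was not tested.

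Of 12 unclustered protocadherins, which have their own promoters at separate loci, 3 passed the filter. In dKO against WT Pcdh1, which lies near the gamma cluster, rose by 1.51 (edgeR adjusted p = 0.00127) and Pcdh19 fell by 0.34 (edgeR adjusted p = 0.0185). Pcdh18 was called higher in dKO than WT (edgeR adjusted p = 3.72e-05), but passed the filter only through dKO. It had 6, 3 and 3 counts in rescue, 16, 17 and 18 in dKO and 1, 0 and 0 in WT, a ratio of dKO to WT of 45.7 with an exact 95% counting interval of 7.84 to 1840. Of these 3, 2 were called higher and 1 lower in dKO against WT (33.7% and 31.0% of all genes), 1 and 2 in rescue against dKO (32.1% and 38.2%), and 2 higher in rescue against WT (26.8%). Of 18 genes of known protocadherin partners and their signalling, 17 were tested, and in dKO against WT 7 rose and 5 fell, against 33.7% and 31.0% of all genes. The WAVE complex gene Cyfip2 rose by 1.02 (edgeR adjusted p = 8.19e-07), Ptk2b, a kinase that gamma and alpha protocadherins inhibit, rose by 1.31 (edgeR adjusted p = 2.41e-05), and the receptor kinase gene Ret by 2.69 (edgeR adjusted p = 0.000102). Ptk2 did not pass (-0.13, edgeR adjusted p = 0.0575). Of the 17, 6 rose and 8 fell in rescue against dKO (32.1% and 38.2% of all genes), and 5 rose and 7 fell in rescue against WT (26.8% and 27.3% of all genes).

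Markers of neurons, neural progenitors and fibroblasts were read beside the members. Of 20 neuronal genes 16 were tested, and in dKO against WT 9 rose and 4 fell, against 33.7% and 31.0% of all genes. Of those that rose, Rbfox3 and L1cam passed the filter only with the dKO libraries, the group where they are high. The neural progenitor filament gene Nes rose by 2.53 (edgeR adjusted p = 1.55e-09), the neurofilament gene Nefl rose by 1.53 (edgeR adjusted p = 1.13e-07), Stmn2 fell by 1.31 (edgeR adjusted p = 8.37e-07) and Stmn3 did not pass (-0.35, edgeR adjusted p = 0.0876). Of the 16, 4 rose and 8 fell in rescue against dKO (32.1% and 38.2% of all genes), and 6 rose and 2 fell in rescue against WT (26.8% and 27.3% of all genes). Gap43, which rose in both, passed the filter only with the rescue libraries, where it is high. The 11 neuron markers summed to 445 to 511 CPM in rescue, 249 to 290 in dKO and 461 to 536 in WT, most of it Stmn2, and Dcx had 0 counts in every library. Though the sum was lowest in dKO, 6 of the 9 tested rose and 3 fell in dKO against WT (33.7% and 31.0% of all genes). Rbfox3 is among these 6. The 4 neural progenitor markers summed to 25.7 to 28.6 CPM in rescue, 94.7 to 117 in dKO and 21.4 to 24.8 in WT, most of it Nes in dKO, while Fabp7 had 3 counts in dKO and 0 in rescue and WT. Sox1 did not pass in dKO against WT (-0.29, edgeR adjusted p = 0.121), and Pax6 was below the filter. The 8 fibroblast markers summed to 10.0 to 10.4 CPM in rescue, 43.2 to 49.5 in dKO and 5.72 to 7.16 in WT, most of it Thy1 in dKO, with Lum at 0 counts in every library. The 4 tested, Thy1, Pdgfrb, Col1a1 and Col1a2, all rose in dKO against WT (33.7% of all genes). All 4 fell in rescue against dKO (38.2% of all genes), and 2 rose in rescue against WT (26.8% of all genes). The part of these cell types in the protocadherin levels was not tested.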

How the data were processed

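Counts of reads per gene were deposited by the authors as whole numbers without normalization. Per the submitters' processing notes, Trimmomatic, STAR 2.4.0 and HTSeq were used on mm10, and per the labels' protocols the kit was TruSeq v2, which is not stranded. HTSeq's counting option is not given in the sources used here, nor are the gene models, so overlapping genes and near-identical members cannot be told apart. Of the Suz12 peaks the authors deposited start and end positions alone, and their caller is not given in the sources used here.

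Counts were tested with edgeR 4.0.16 in R 4.3.3 (TMM, filterByExpr by group with a minimum count of 10, robust glmQLFit, glmQLFTest) in 1 fit of 9 libraries with 6 residual degrees of freedom and 14145 genes, two-sided. A call is a Benjamini-Hochberg adjusted p under 0.05 over all genes tested. CPM use TMM-scaled totals, and 0 entries named no gene. The procedure was tested on simulated data. Gene positions and starts came from RefSeq on GRCm38.p6, and a peak counted with an overlap of at least 1 base. Alternatives were DESeq2 1.42.0 size factors and its Wald test, scaling on chromosome 18 genes, 2 other filters, fits of 2 groups, a replicate block, no robust estimation, and leaving out each library. Intervals and limits cover counting error only.

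The members and gene lists were chosen with earlier results of these data known. Values per library are given for the 5 members of each cluster with the highest mean CPM, the C-type members and members called against the majority of their cluster. Those of Pcdhgb7, Pcdhga2 and Pcdhga3 were added beyond this rule, after their values were seen. Of each other list, up to 3 called genes with the smallest adjusted p in dKO against WT and 1 that did not pass are named. Ctcf, Smchd1, Cd14 and some neuronal and cell type markers, Sox1 and Pax6 among them, are named beyond this. 61 of the 62 chromatin samples were not analysed here.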

Additional observations from a re-analysis of the deposited data

How the results depend on the processing

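No alpha member was called, but 5 were tested with no filter, at most 3 by DESeq2's Wald test and 0 otherwise, so this shows nothing about stability. With no filter, edgeR called 2 beta members higher in dKO against WT and 1 in rescue against WT, and 2 gamma members lower in rescue against dKO and 2 in rescue against WT, with Pcdhgc5 added each time. With a mean of at least 2 CPM, which left 4 gamma members to test, gamma members called higher were 0 in dKO against WT, 3 in rescue against dKO and 1 in rescue against WT, and 0 were called lower in rescue against dKO. DESeq2's Wald test called 1 beta and 1 gamma member higher in dKO against WT and 2 gamma members lower in rescue against WT. Leaving out each library in turn, gamma members called higher ranged over 1 to 5 in dKO against WT and 3 to 5 in rescue against WT, and those called lower over 0 to 3 in rescue against dKO and 0 to 2 in rescue against WT. The lowest of these came without dKO replicate 2 or WT replicate 1 (1 higher in dKO against WT), without dKO replicate 2 (0 lower in rescue against dKO), and without rescue replicate 1 or WT replicate 3 (0 lower in rescue against WT). Each fit with 2 libraries in a group assumes that they vary like the other groups. Counting only peaks wider than the median left 2 in alpha and 3 in beta. Pcdhga10, which did not pass in dKO against WT, ranged over -0.164 to 0.373 with 1 library left out, and turned to -0.11 without dKO replicate 2 and -0.16 without WT replicate 2.

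The replicate numbers did not pair the libraries: correlations of deviations between same-numbered libraries were -0.20 to 0.33. With the replicate block gamma members called were 3 higher and 3 lower in dKO against WT, 5 and 1 in rescue against dKO, and 3 and 1 in rescue against WT, and Pcdhga11 was not called (adjusted p = 0.0606). The cause of these changes was not tested.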
